A study of Mus musculus with 3 samples.

Results

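The 8 gut hormone and granin genes Gcg, Pyy, Insl5, Sst, Chga, Chgb, Scgn and Neurod1 were taken by gene symbol from the 31053 genes of a single-cell RNA-seq data set of the mouse anorectal junction. They were described in the 102 cells, of 37080, that the authors annotated as enteroendocrine cells (EEC), which are the whole of cluster 24 of their 29 clusters, and in every other cluster. Distal colon and anus of C57Bl/6 mice bought at 6 weeks of age were dissociated with trypsin, cleared of dying cells by Annexin V selection and put through droplet-based 3′ sequencing. The day 0 group was untreated. The day 7 and day 42 groups had received 3% dextran sulfate sodium (DSS), a polymer that injures the colon lining, in drinking water for 6 days from day 0, and their labels read severe colitis at day 7 and recovered at day 42. The tissue of 5 mice was pooled per day, so each day is 1 library without a replicate, the spread between mice is not known and no p-value is given. All intervals are exact 95% intervals that cover counting error only.

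Enteroendocrine cells are rare hormone-secreting cells of the gut lining. In the distal colon, L cells make glucagon-like peptides from Gcg, peptide YY (Pyy) and insulin-like peptide 5 (Insl5), D cells make somatostatin (Sst), and enterochromaffin cells make serotonin with the enzyme encoded by Tph1. Chga and Chgb encode granins, acidic proteins packed with hormones in dense-core vesicles. Scgn encodes secretagogin, a calcium-binding protein of endocrine cells, and Neurod1 encodes a transcription factor of the endocrine lineage.

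The promoter windows of 4 members are printed because the results turn on which hormone is found with which, and because a cAMP response element, a site known for the Sst promoter, can be looked for in them. Each runs from 250 bases before to 50 bases after the RefSeq start in build GRCm38.p6, 5′ to 3′ on the gene's strand. Capitals mark the cAMP response element TGACGTCA in Sst and Chgb, and TATAAA, or its reverse TTTATA, in Gcg. No letters of Pyy matched either motif.
Sst: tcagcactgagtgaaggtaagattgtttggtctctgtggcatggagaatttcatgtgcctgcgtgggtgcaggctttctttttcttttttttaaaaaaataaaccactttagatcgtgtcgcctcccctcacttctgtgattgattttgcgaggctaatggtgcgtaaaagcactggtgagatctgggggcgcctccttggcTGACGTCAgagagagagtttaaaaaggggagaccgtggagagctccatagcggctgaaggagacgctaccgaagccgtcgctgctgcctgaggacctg
Chgb: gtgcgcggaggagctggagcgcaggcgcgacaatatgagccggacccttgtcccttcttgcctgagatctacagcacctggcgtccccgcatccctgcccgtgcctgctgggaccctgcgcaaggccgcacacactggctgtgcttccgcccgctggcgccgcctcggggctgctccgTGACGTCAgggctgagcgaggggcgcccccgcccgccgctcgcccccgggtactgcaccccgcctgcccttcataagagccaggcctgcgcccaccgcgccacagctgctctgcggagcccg
Gcg: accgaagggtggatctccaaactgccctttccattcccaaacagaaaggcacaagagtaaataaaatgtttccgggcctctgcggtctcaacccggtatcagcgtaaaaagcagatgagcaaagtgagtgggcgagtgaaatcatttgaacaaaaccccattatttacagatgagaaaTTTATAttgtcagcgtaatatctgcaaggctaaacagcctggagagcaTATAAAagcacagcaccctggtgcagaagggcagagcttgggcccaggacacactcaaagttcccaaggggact
Pyy: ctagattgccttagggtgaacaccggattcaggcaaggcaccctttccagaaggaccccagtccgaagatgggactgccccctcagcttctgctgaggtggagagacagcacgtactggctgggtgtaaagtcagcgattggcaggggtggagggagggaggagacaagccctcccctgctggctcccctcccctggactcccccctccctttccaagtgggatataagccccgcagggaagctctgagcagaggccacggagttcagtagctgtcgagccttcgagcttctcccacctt

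The Sst window lies at chr16:23890795-23891094 on the minus strand and its element starts 48 bases before the start. The Chgb window lies at chr2:132781392-132781691 on the plus strand and its element starts 72 bases before the start. The Gcg window lies at chr2:62483604-62483903 and the Pyy window at chr11:102107783-102108082, both on the minus strand. The full element, which is its own reverse complement, was found in 2 of the 8 members and in 507 of 27025 promoter windows, or 1.88%. Its left part TGACG, or the reverse CGTCA, which also lies within every full element, was found in Sst, Chgb and Chga and in 21.0% of windows. TATAAA on either strand was found in Gcg, Insl5 and Chga and in 14.2% of windows. These letter matches are a description of the windows. Over the 102 single EEC, the r between the levels of Sst and Chgb was -0.07.

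The 3 libraries held 11037, 14376 and 11667 cells with 89241138, 151886649 and 72258639 unique molecular identifiers (UMIs, each standing for 1 captured transcript) for the days in order. EEC numbered 78, 12 and 12, which was 0.707% (0.559 to 0.881), 0.0835% (0.0431 to 0.146) and 0.103% (0.0532 to 0.180) of the cells of these libraries. The median EEC had 6968.5, 5382.5 and 5894.5 UMIs on these days. Of 36941 barcodes, 139 occurred in more than 1 library, among them that of 1 EEC. The annotation was made from these same cells, and 11 endocrine markers that are not members, such as Pcsk1n, Cpe, Scg5 and Insm1, describe it. All 11 were detected on each day, their sum was 5234, 4105 and 4706 UMIs per 1000000 UMIs (CPM), and 98 of 102 EEC had a UMI of at least 1. So had 15.5% of the day 7 cells of keratinocyte cluster 12 without Sst, at a median depth of 1684 UMIs. Not all 11 are confined to EEC, where Cpe was 1.51-fold and Vwa5b2 5.08-fold over the next cluster. Genes of other cell types were also present in EEC. The 5 keratinocyte markers, all detected on each day, had sums of 450, 6673 and 1591 CPM for day 0, day 7 and day 42. The 3 neutrophil markers were at 0 at day 0 and summed to 8306 CPM at day 7 and 133 at day 42. Of 7 goblet markers, 7, 3 and 7 were detected, with sums of 526, 43.0 and 6443 CPM. Of these UMIs, 1 EEC of day 7, with 35269 UMIs, had 95.5% of the keratinocyte and 99.0% of the neutrophil marker UMIs of that day, and 1 EEC of day 42, with 15992 UMIs, had 90.7% of the goblet marker UMIs. The first was the Sst cell of day 7 and the second the highest Pyy cell of day 42. Of 4 T cell markers, Cd3e, Cd3d and Trac were at 0 and Ptprc, a gene of all white blood cells, had 4 UMIs in 2 EEC. The part of these transcripts in the member levels was not tested.

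**Figure D1:**
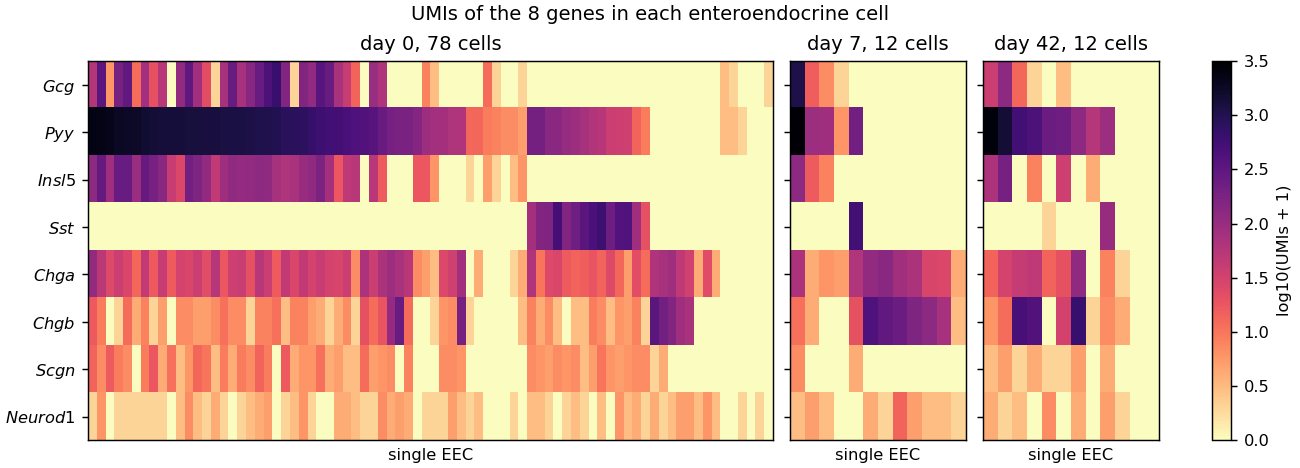
Colour gives log10(UMIs + 1) of each of the 8 genes (rows) in each single EEC (columns) at day 0 (78 cells), day 7 (12 cells) and day 42 (12 cells). Within a day, cells are ordered from those with Gcg, Pyy or Insl5, through those with Sst, to those with granins alone and those with neither, and Sst never shares a column with Gcg or Insl5.

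Of all UMIs in EEC, the 8 genes made up 10.1%, 7.65% and 11.1% on the 3 days. Without the 1 cell with most of them, the day 7 share was 3.65%. Each UMI tags one end of a transcript, so CPM are not divided by gene length. Pyy was found at 72012 CPM (71316 to 72713) at day 0, 35416 (34218 to 36647) at day 7 and 77633 (75657 to 79647) at day 42, in 67 of 78, 5 of 12 and 9 of 12 cells. Among the cells with Pyy, the median was 246, 91 and 244 UMIs and the highest count 2373, 2900 and 2700. A single cell supplied 88.0% of the day 7 Pyy UMIs and 46.1% of those at day 42, and without that cell the level was 4984 CPM at day 7 and 53096 CPM at day 42. As a share of EEC, those with a Pyy UMI were 85.9% (76.2 to 92.7), 41.7% (15.2 to 72.3) and 75.0% (42.8 to 94.5). The day 0 and day 7 intervals did not overlap. At a matched depth of 1000 UMIs per cell, a Pyy UMI was found in 85.5%, 33.3% and 80.0% of EEC.

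Gcg, the gene of glucagon-like peptides, stood at 8382 CPM (8146 to 8624) at day 0, 12228 (11528 to 12960) at day 7 and 2320 (1989 to 2690) at day 42. It was found in 40 of 78, 4 of 12 and 5 of 12 cells. One cell with 1117 UMIs held 98.2% of the day 7 Gcg UMIs, the other 3 Gcg cells of that day held 14, 6 and 1, and the level without that cell was 264 CPM. At day 42 the highest cell held 70.9% of the Gcg UMIs, and the level without it was 774 CPM. Insl5, the gene of an orexigenic peptide of colonic L cells, stood at 6725 CPM (6513 to 6941), 1580 (1335 to 1857) and 4057 (3615 to 4538) and was found in 41 of 78, 3 of 12 and 5 of 12 cells. Without the highest cell of each day, Insl5 stood at 277 CPM at day 7 and 1669 at day 42. The Gcg and Insl5 shares of cells had overlapping intervals on all 3 days. Sst, which encodes an inhibitory peptide of D cells, stood at 6674 CPM (6463 to 6889) at day 0, from 14 cells with a median of 222.5 UMIs. At day 7 all 550 Sst UMIs, 5910 CPM (5426 to 6425), came from 1 cell, and at day 42 a single cell gave 99.0% of the 102 UMIs, 1352 CPM (1103 to 1641). The cell at day 7 was also the deepest EEC of that library, with 35269 UMIs, and held 593 UMIs of the keratinocyte and 765 of the neutrophil markers.

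Among the granins, Chga was found in 68 of 78 cells at day 0, in all 12 at day 7 and in 9 of 12 at day 42, at 3829 CPM (3670 to 3993), 6297 (5797 to 6828) and 3765 (3340 to 4229). At day 42 one cell held 40.5% of the Chga UMIs, and the level without it was 2437 CPM. Chgb was found in 59 of 78, 10 of 12 and 9 of 12 cells, at 2975 CPM (2835 to 3120), 14646 (13878 to 15444) and 21264 (20236 to 22331). The shares of cells with Chgb had overlapping intervals, while the median among those cells was 6 UMIs at day 0, 98 at day 7 and 11 at day 42. At day 42 one cell held 40.9% of the Chgb UMIs, and the level without it was 13671 CPM. Scgn was found in 53 of 78 cells (67.9%, 56.4 to 78.1), 2 of 12 (16.7%, 2.09 to 48.4) and 8 of 12 (66.7%, 34.9 to 90.1), at 596 CPM (534 to 663), 96.7 (44.2 to 184) and 252 (152 to 393). The day 0 and day 7 intervals of the Scgn share did not overlap, but at a matched depth of 1000 UMIs they did, with 36.8% (26.1 to 48.7) at day 0 and 0 of 12 cells (0 to 26.5%) at day 7. Without the highest cell, Scgn at day 7 was 37.8 CPM. Neurod1 levels had overlapping intervals, at 232 CPM (194 to 275), 365 (253 to 511) and 265 (162 to 409), in 60 of 78, 10 of 12 and 7 of 12 cells, and the day 7 level without its highest cell was 239.8 CPM. No ratio between days was formed, because day 7 and day 42 have 12 EEC each.

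**Figure D2:**
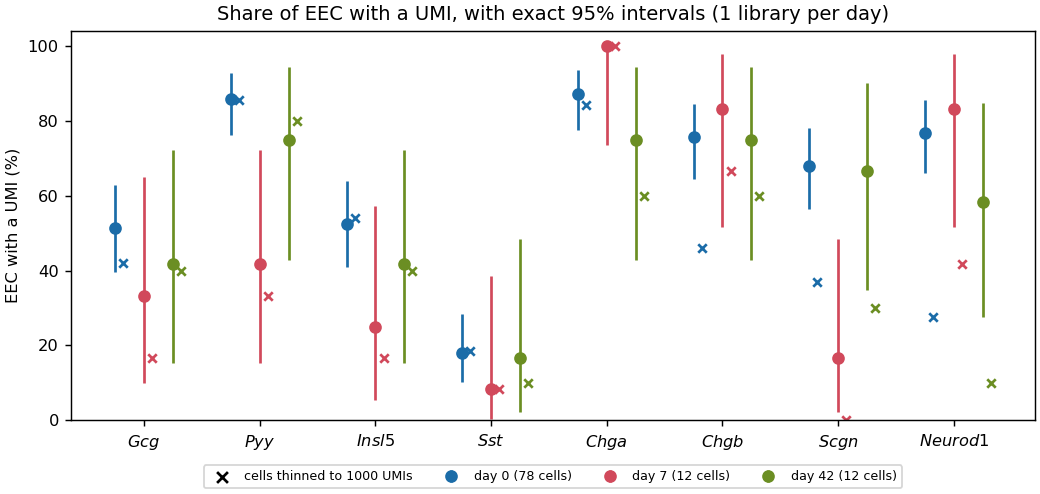
Share of EEC with at least 1 UMI of each gene (%, y axis) at day 0, day 7 and day 42, as points with exact 95% intervals, and as crosses for cells thinned to 1000 UMIs. The day 0 and day 7 intervals of the unthinned shares are apart for Pyy (85.9% and 41.7%) and Scgn (67.9% and 16.7%) and overlap for the other genes.

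In single EEC, Gcg was found mostly with Insl5 and Pyy, and Sst was found with Pyy but not with Gcg or Insl5. Of the 49 cells with a Gcg UMI, 48 also had Pyy and 44 had Insl5, a share of 89.8% (77.8 to 96.6), against 9.43% (3.13 to 20.7) of the 53 cells without Gcg. All 49 Insl5 cells had Pyy. All 17 Sst cells had Pyy as well, against 75.3% of the 85 cells without Sst. None of the 17 had Gcg or Insl5: 0 of 49 Gcg cells had Sst (0 to 7.25%), against 17 of 53 cells without Gcg (32.1%, 19.9 to 46.3). At a count of at least 3 UMIs, 37 EEC had Gcg, Pyy and Insl5 together, 9 had Pyy and Insl5, 15 had Pyy alone, 1 had Gcg and Pyy, 16 had Pyy and Sst, and 24 had no hormone. The Pyy count in the 37 cells had a median of 1162 UMIs (8 to 2900), in the 16 cells with Sst 84 (8 to 215) and in the 15 with Pyy alone 63 (5 to 402), with median depths of 9538, 5935 and 6087 UMIs. Of the 15 cells with Pyy alone, 7 had a UMI of Hhex, a transcription factor of D cells, as had 1 of the 37. By day, cells with Gcg, Pyy and Insl5 numbered 32, 3 and 2, and cells with Pyy and Sst 14, 1 and 1.

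**Figure D3:**
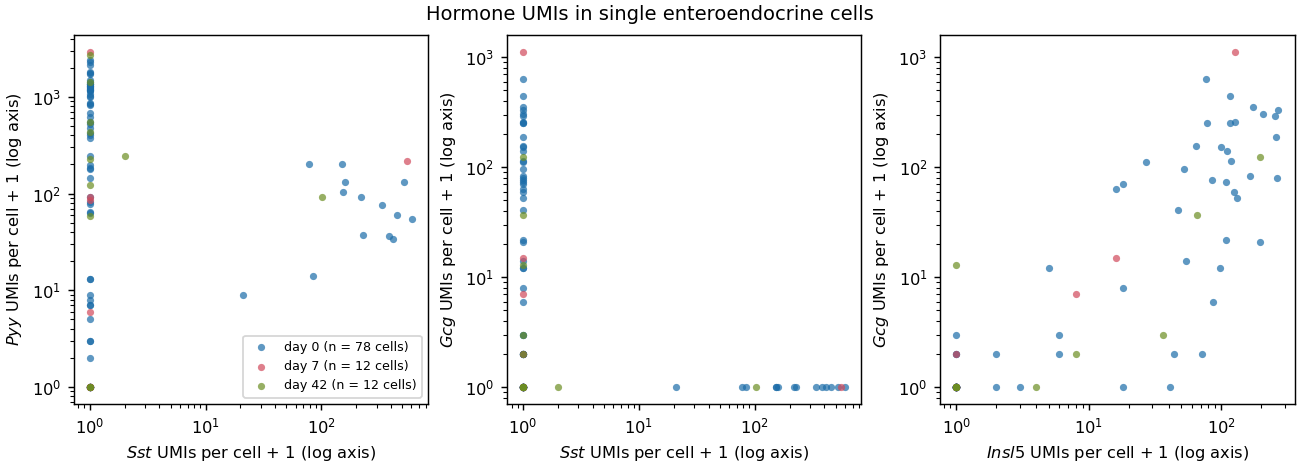
UMIs per single EEC plus 1 on log axes, for Sst against Pyy, Sst against Gcg and Insl5 against Gcg, coloured by day (78, 12 and 12 cells). Cells with Sst lie along the axis in the plot against Gcg, with 0 of 17 holding a Gcg UMI, while 44 of 49 Gcg cells hold Insl5.

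Chga and Chgb were found together in 76 cells, and Chgb was in 85.4% (76.3 to 92.0) of Chga cells against 2 of the 13 cells without Chga. All 17 Sst cells had Chga and Scgn, against 84.7% and 54.1% of the 85 cells without Sst. Scgn was in 75.3% (64.5 to 84.2) of Pyy cells but in 2 of 21 cells without Pyy (9.52%, 1.17 to 30.4). Chga was found in 90.1% of cells with Pyy and 76.2% of those without, and Neurod1 in 74.1% and 81.0%. These shares move with depth. Thinned to 1000 UMIs, Chgb was in 56.1% (44.7 to 67.0) of Chga cells against 18.8% (4.05 to 45.6), Scgn was in 37.7% (26.9 to 49.4) of Pyy cells against 9.52% (1.17 to 30.4) and in 56.2% of Sst cells, and the intervals of both pairs overlapped. Insl5 was then in 97.4% (86.2 to 99.9) of Gcg cells against 16.7% (8.29 to 28.5). These counts describe cells of 3 libraries, 78 of the cells from 1 of them.

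Sorting the EEC by their hormones, with groups set after the values were seen, left 16 cells with at least 3 UMIs of a granin and under 3 UMIs of each hormone. Genes of serotonin-making cells were found in part of them. Tph1, the rate-limiting enzyme of serotonin synthesis, was in 10 of the 16, Slc18a1, a vesicular amine transporter, in 11, Tac1, the precursor of substance P, in 12, and the transcription factor Lmx1a in 11. By day, Tph1 was in 2 of 8 such cells at day 0, with no more than 4 UMIs, in 7 of 7 at day 7, with up to 31, and in the 1 cell of day 42. Tac1 was in 4 of the 8 and 7 of the 7, Slc18a1 in 5 and 5, and Lmx1a in 4 and 6. The median depth of these cells was 3905 UMIs at day 0 and 5275 at day 7, and a difference between the days was not tested. In the 62 cells with at least 3 UMIs of Gcg, Pyy or Insl5 and under 3 of Sst, the counts for the same genes were 2, 8, 12 and 1. The granin cells, picked for their granin counts, had medians of 105 Chgb and 39 Chga UMIs, and Neurod1 was in all 16. Scgn was in 2 of them and Hhex and Cck in none. Hhex was in all 16 Sst cells with a median of 9 UMIs, and in 8 of the 62. Tph1, Slc18a1 and Lmx1a were in 0 of the 16 Sst cells. Tac1 was in 1 of them, the day 7 cell with 35269 UMIs, at 25 UMIs.

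The makeup of the EEC by these groups is given for each library. Cells with a granin and no hormone were 8 of 78 at day 0 (10.3%, 4.53 to 19.2), 7 of 12 at day 7 (58.3%, 27.7 to 84.8) and 1 of 12 at day 42 (8.33%, 0.211 to 38.5). The day 0 and day 7 intervals did not overlap. The groups were set after the values were seen and each day is 1 library, so a difference between days was not tested. The 7 cells of day 7 had 0 UMIs of Gcg, Pyy, Insl5 and Sst and up to 432 UMIs of Chgb. Each of the 7 held 1 to 5 UMIs of the keratinocyte markers, 612 CPM together. The day 42 Chgb level came from other cells: the 3 with most, at 656, 495 and 397 UMIs, also held 121, 547 and 436 UMIs of Pyy. Only the second of them had many Tph1 UMIs, with 56. Near the count of 3 that bounds these groups, 4 EEC had their highest hormone at 1 or 2 UMIs and 5 at 3 to 9. A further 20 EEC had no UMI of the 4 hormones and 3 no UMI of any member. Some granin cells also lay at the granin count of 3. The day 0 cells of 1651 and 3592 UMIs had 3 Chga and 0 Chgb. The day 7 cell of 1233 UMIs had 3 Chga and 2 Chgb, and the day 42 cell had 1 Chga and 3 Chgb.

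Outside EEC the 8 genes were low. The annotation was made from clusters of the same cells and genes, so the levels against other clusters are a description. In all libraries together, each of the 8 members was at least 10-fold higher in EEC than in the highest of the other 28 clusters, where 3.33% of the 1654 genes with at least 100 CPM in EEC were. The same held for 8 members at day 0 (background 3.51%), 7 at day 7 (3.17%), where Scgn was under 100 CPM, and 8 at day 42 (2.75%). EEC held 97.2% of all Gcg UMIs of the data set, 96.3% for Pyy, 95.5% for Insl5, 93.7% for Chga, 91.2% for Chgb, 95.8% for Scgn and 93.5% for Neurod1, but 75.6% for Sst. Pyy was 1292-fold (1114 to 1507) higher in EEC than in the next cluster, an unnamed one, cluster 6, at 52.6 CPM, and it had a UMI in every cluster, from 2.35 CPM upward. For Gcg and Insl5 the highest other cluster was of T cells and of B cells with 1 UMI each, giving folds of 466 (83.5 to 18391) and 197 (35.3 to 7772). Without the 2 clusters of under 100000 UMIs these became 1840 and 809, over cluster 6. Chga (204-fold, 165 to 257), Chgb (97.3-fold, 86.1 to 110), Scgn (261-fold, 131 to 610) and Neurod1 (212-fold, 89.2 to 661) were next highest in keratinocyte cluster 12, as was Sst, only 27.0-fold lower there (25.2 to 29.0).

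**Figure D4:**
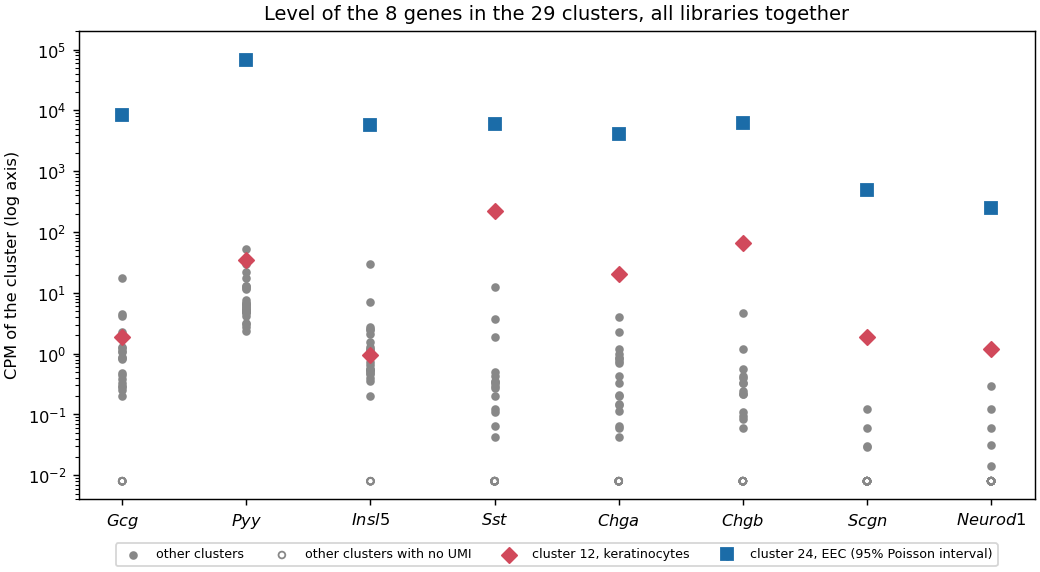
CPM (log axis) of each gene in each of the 29 clusters, all libraries together: EEC as squares with 95% Poisson intervals, keratinocyte cluster 12 as diamonds and the other clusters as dots, open at the foot of the axis where a cluster has no UMI. EEC lie highest for all 8 genes, and cluster 12 is next for Sst, at 223 CPM, Chga, Chgb, Scgn and Neurod1.

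Outside EEC and cluster 12, a Pyy UMI was found in 3.58% of 35107 cells (median depth 6245 UMIs), Insl5 in 0.507%, Gcg in 0.444%, Chga in 0.219%, Sst in 0.177%, Chgb in 0.148%, Neurod1 in 0.0228% and Scgn in 0.0171%. In EEC the same shares were 87.3% for Chga, the widest of the 8, 79.4% for Pyy and 16.7% for Sst, the narrowest. Among these other cells with at most 2 UMIs of each member there were 8.94 Pyy UMIs for each Gcg UMI, against 8.24 in EEC, and 7.45 for each Insl5 UMI, against 11.7. By day the ratio of Pyy to Gcg was 9.09, 6.84 and 14.9 in those cells and 8.59, 2.90 and 33.5 in EEC. The EEC ratios of day 7 and day 42 rest on few cells. At day 7, 1 EEC held 1117 of the 1138 Gcg and 2900 of the 3296 Pyy UMIs, which leaves 21 and 396 in the others. At day 42, 1 EEC held 124 of the 175 Gcg UMIs. A further 13 cells outside EEC and cluster 12 held at least 10 UMIs of a member. Pyy was the highest member in 9 of them, Sst in 3 and Chgb in 1. A day 0 colonocyte had 243 Sst, 45 Pyy and 5 Hhex UMIs, and a day 42 cell of keratinocyte cluster 3 had 130 Sst, 79 Pyy, 5 Hhex and 68 Krt5 UMIs. A day 42 colonocyte had 111 Chgb, 23 Chga and 12 Tph1 UMIs. The first 2 of these cells thus held Sst with Pyy and Hhex and no Gcg, and the third Chgb with Tph1 and no Sst.

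Keratinocyte cluster 12 held the most Sst UMIs outside EEC, 939, all from day 7, ahead of colonocyte cluster 2 with 309 and keratinocyte cluster 3 with 132. Its cells numbered 51, 1668 and 152 on the 3 days, with medians of 1948, 1672.5 and 1010.5 UMIs. Sst had 0, 939 and 0 UMIs, so that the day 7 level was 245 CPM (229 to 261). A floor of 3 counts, set here for a count of 0, would be 19.0 CPM at day 0 and 14.4 CPM at day 42. The exact intervals of these 0 counts reached up to 23.4 CPM at day 0 and 17.7 CPM at day 42. A Sst UMI was found in 47 cells of day 7, 2.82% (2.08 to 3.73), and in 0 of 51 (0 to 6.98%) and 0 of 152 (0 to 2.40%) cells of the other days. The intervals of both other days overlap that of day 7. A difference in the share of cells was not tested, and each day is 1 library. The cells of the cluster also differed between the days in other markers. The neutrophil markers stood at 203, 6371 and 498 CPM, the keratinocyte markers at 12104, 17160 and 24839 CPM and the colon epithelium markers at 996, 951 and 2140 CPM. The inner root sheath markers had 19171 UMIs at day 0, of which 19169 were in 1 cell of 38715 UMIs, and 61.5 CPM at day 7 and 9.58 CPM at day 42. Without that cell the floor of 3 counts at day 0 would be 25.2 CPM. The part of these differences in the Sst level was not tested. Of the 47 cells, 40 had at least 3 Sst UMIs and 25 at least 10, the highest count was 136, and the 10 highest cells held 65.0% of the UMIs. Thinned to 1000 UMIs, 32 of 1329 cells (2.41%) kept one.

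The 47 cells also carried Pyy, as Sst cells of the EEC cluster did. Pyy was in 34 of them (72.3%, 57.4 to 84.4) and in 37 of the 1621 other cells of cluster 12 at day 7 (2.28%, 1.61 to 3.13), while Gcg and Insl5 were in 0 of 47 (0 to 7.55%), an interval that includes their shares in those other cells, 0.494% and 0.123%. Chgb was in 22, Chga in 15, Scgn in 7 and Hhex in 4. Their median depth was 1512 UMIs, against 5935 in the 16 Sst cells among EEC. The ratio of Sst to Pyy UMIs was 9.78 in the 47 cells, all of day 7, and 3.00 in those 16 EEC. Of the 16 EEC, 14 were of day 0, with a ratio of 3.24. The 1 cell of day 7 had a ratio of 2.56 and the 1 cell of day 42 a ratio of 1.10. Keratinocyte markers were in all 47, at 13816 CPM together, against 17225 in the cells without Sst. The 6 inner root sheath markers stood at 138 CPM, with Krt27, Krt71 and Krt73 at 0, against 60.1 CPM in the cells without Sst. The 8 Merkel cell markers stood at 745 against 372 CPM, with Atoh1 at 0 in both, and the 7 colon epithelium markers at 1558 against 939 CPM, with Cdx2 at 0 in both. These 2 lists share Krt8, Krt18 and Krt20. In the 16 Sst cells among EEC they stood at 3768 and 4219 CPM. There, Isl1 and Piezo2 of the Merkel list were in 16 and 15 cells. The 8 neuron markers stood lower in the 47 cells than in the cells without Sst, at 68.9 against 341 CPM and with a UMI in 10.6% against 32.7% of cells, as did the 6 absorptive colonocyte markers, at 96.5 against 145 CPM. Among the 11 endocrine markers that are not members, Pax6, Insm1, Rfx6 and Vwa5b2 were at 0. The sum was 400 CPM, with a UMI in 31.9% of the 47 cells, against 89.3 CPM and 15.5% in the cells without Sst, where 6 of the 11 were at 0, and 3262 CPM in the 16 Sst cells among EEC. A high doublet score, in the top 5% of the cells of the day 7 library, was given to 5 of the 47 (10.6%) and to 12.6% of the other cells of the cluster at day 7. Whether transcripts of other cells are part of the Sst signal was not tested.

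Chgb was in 22 of the 47 Sst cells of cluster 12 at day 7 (46.8%, 32.1 to 61.9) and in 38 of the 1621 cells without Sst (2.34%, 1.66 to 3.20), but in the Sst cells its highest count was 7 UMIs and in the others 49. A further 23 cells of day 7 had at least 3 Chgb UMIs and no Sst, a group set after the values were seen, and 2 cells had both Sst and at least 3 Chgb UMIs. Of the 23, 14 had Chga, 15 Tph1, 12 Tac1 and 11 Ddc, the enzyme that completes serotonin synthesis, while 2 had Pyy and 0 had Gcg, Insl5, Hhex or Scgn. Among the 1598 cells without Sst and with under 3 Chgb UMIs, Chga was in 6, Tph1 in 4, Tac1 in 30, Ddc in 6 and Pyy in 35. Ddc was also in 49 of the 62 EEC with Gcg, Pyy or Insl5 and in 10 of the 16 Sst cells among EEC. Keratinocyte markers were in all 23, at 8594 CPM together. Tph1 was in 0 of the 47 Sst cells (0 to 7.55%), an interval that includes the 1.17% of the 1621 cells without Sst. The 23 cells were picked for lacking Sst, so their lack of it is no result.

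**Figure D5:**
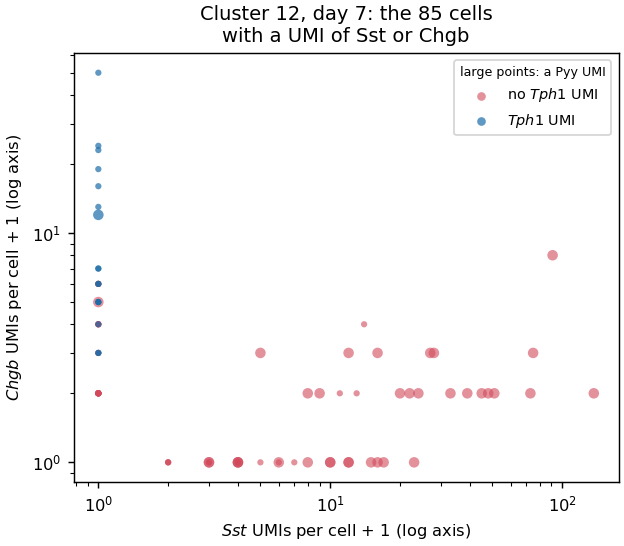
Sst against Chgb UMIs plus 1 (log axes) in the 85 cells of keratinocyte cluster 12 at day 7 with a UMI of either gene. Blue cells have a Tph1 UMI and large points a Pyy UMI. Cells with Tph1 lie at 0 Sst, and those with Pyy lie mostly among the 47 cells with Sst.

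Other genes of the endocrine programme were described from lists. A gene was counted as specific when it had at least 20 UMIs in EEC and was at least 10-fold over every other cluster, which 1.98% of the 5766 genes with that many UMIs were. Of 16 endocrine transcription factors, 9 were counted, among them Etv1 (336 CPM) and Insm1 (309). Isl1 (574 CPM) and Sox4 (416) were higher in EEC but were not among the 9, at 4.36-fold and 1.71-fold over the next cluster. Of 11 genes of granins and prohormone processing, 5 were counted, led by Pcsk1n (2076 CPM) and Scg2 (1390). Cpe, an enzyme that trims prohormones, stood at 1063 CPM but was 1.51-fold over the next cluster, and Pcsk2, a prohormone convertase, was at 0. Of 16 other hormones and genes of amine synthesis, 4 were counted, namely Ppy (865 CPM, in 12 cells), Iapp (279), Tph1 (233) and Slc18a1 (59.7). Of the 206 Iapp UMIs, 117 were in 1 cell, without which Iapp was 9.03-fold over the next cluster and would not be counted. Of the 638 Ppy UMIs, 261 were in 1 cell, and Ppy was 517 CPM without it. Ddc (372 CPM, 6.57-fold) and Cck (309 CPM, 7.34-fold) were not, and Nts, Gip, Ucn3, Slc18a2, Vip and Calca were at 0. Tph1 stood at 22.9 CPM at day 0, 1096 at day 7 and 756 at day 42, in 3, 7 and 2 cells. Without the highest cell of each day it stood at 8.96, 798 and 14.6 CPM, since 56 of the 57 UMIs of day 42 were in 1 cell. Of 15 exocytosis and channel genes, 6 were counted, led by Cplx2 (281 CPM), Snap25 (245) and Cacna1a (232), and Chrna3 was at 0. Of 10 nutrient and bile acid receptors, 2 were counted, Olfr78, a receptor for short-chain fatty acids (420 CPM, in 52 cells), and Gpr119 (48.8). Ffar2 (76.0 CPM, 4.35-fold) was not, and Casr and Trpa1 were at 0.

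The genes most like each member over single EEC were found among 7499 genes with a UMI in at least 10% of the 102 cells, by Pearson's r of log2(CPM + 100). The cells share 3 libraries and differ in depth, so r is a description. Insl5 was most like Gcg (r = 0.84), followed by Pappa2 (0.75) and Scg2 (0.70). Pyy was most like Insl5 (0.73), Scg2 (0.71) and Ceacam10 (0.64), and Insl5 itself came with Gcg, Scg2 (0.81) and Pyy. Sst came with Hhex (0.82), Cdc42ep3 (0.72) and Spock2 (0.72), and its r with Gcg was -0.36 and with Insl5 -0.40. Chga came with Cpe (0.69), Chgb (0.67) and Cd81 (0.64), and Chgb with Slc18a1 (0.70), Chga and Scn3a (0.63). Scgn came with Ceacam10 (0.71), Cela1 (0.68) and Rbp4 (0.65). Neurod1 had no close match, with Rgs7 at 0.41, Lmx1a at 0.39 and Phf20l1 at 0.38. Over the 29 clusters, where r rests mostly on the one point of EEC, the nearest genes were Rfx6, Dbpht2 and Nkx2-2 for Gcg, Insl5, Olfr78 and Chga for Pyy, Rfx6, Dbpht2 and Ppy for Insl5, and Chgb, Iapp and Tph1 for Sst. They were Nefm, Iapp and Resp18 for Chga, Iapp, Chga and Tph1 for Chgb, Neurod1, Avpr1b and Resp18 for Scgn, and Avpr1b, Fam183b and Nkx2-2 for Neurod1.

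All 8 members are protein-coding genes in the GENCODE M21 annotation of GRCm38. Gcg (ENSMUSG00000000394) lies at chr2:62474530-62483650, Neurod1 (ENSMUSG00000034701) at chr2:79452521-79456751 and Chgb (ENSMUSG00000027350) at chr2:132781278-132795079. Insl5 (ENSMUSG00000066090) lies at chr4:103017872-103026842, Pyy (ENSMUSG00000017311) at chr11:102106676-102107832 and Chga (ENSMUSG00000021194) at chr12:102554969-102565028. Scgn (ENSMUSG00000021337) lies at chr13:23953456-23991214 and Sst (ENSMUSG00000004366) at chr16:23889573-23890958. Chga and Chgb are on the plus strand and the others on the minus strand.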

How the data were processed

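Single-cell 3′ libraries of pooled distal colon and anus from 5 mice per day were sequenced at day 0, day 7 and day 42, 1 library each. Cell Ranger 3.0.2 and build mm10 are named in the submitters' processing notes, and other steps are not given in the sources used here. The deposited matrix holds UMI counts per gene and cell, not normalized. The deposited cell table gives the authors' clusters, annotation and a size factor per cell, a ratio of the cell's total UMIs to a typical total, which was used only to check that the cells are in the same order. Cells were used as deposited, with no further filter and doublets left in.

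UMIs were summed per day or cluster and given as CPM with exact Poisson intervals, and shares of cells with exact Clopper-Pearson intervals, at 95%. A floor of 3 counts was used where a count was 0. For matched depth, cells with at least 1000 UMIs were thinned to 1000. Of EEC, 2, 0 and 2 were too shallow for this at day 0, 7 and 42. Fold over other clusters used clusters of at least 20 cells, and genes named for likeness were the 3 with the highest r for each member. Log values had a pseudocount of 10 CPM over clusters and 100 CPM over cells. Doublets were scored with Scrublet in scanpy 1.11.5 (Python 3.11.15, numpy 2.4.6, scipy 1.17.1), and the fold and likeness steps were tested on simulated data. Promoter windows came from RefSeq (GRCm38.p6), which holds 1 window for each member except Pyy and Insl5, with 2, of which the first was used. RefSeq starts can differ from those of GENCODE M21. The members, lists and groups of cells were chosen with earlier results of these data known. Ratios between days in EEC were planned only for days with at least 20 EEC each and were not formed.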

Additional observations from a re-analysis of the deposited data

How the results depend on the processing

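With 1 library per day, no replicate could be left out. The level of the 8 genes together in EEC, 101425 CPM at day 0, was 105675 after a cell filter (1000 UMIs, 500 genes, no more than 20% mitochondrial), 105355 without the 5% of cells with the highest doublet score, 81376 as the mean of CPM per cell, 122522 without mitochondrial and ribosomal genes, 103142 in EEC with at least 2 other endocrine markers, 81466 without the 10 cells with most and 98755 without the 1 cell with most UMIs of these genes. At day 7, 76539 CPM became 87326 with the cell filter, 62725 as the mean per cell, 98969 without mitochondrial and ribosomal genes and 36459 without 1 cell. At day 42, 110908 CPM became 88943 as the mean per cell, 138135 without mitochondrial and ribosomal genes and 93237 without 1 cell. Sst in cluster 12 at day 7, 245 CPM, was 228 with the cell filter, 271 without high doublet scores, 86.1 without its 10 highest cells and 409 as the mean per cell. The cause was not tested. The count of 8 members at least 10-fold over other clusters was 8 under all 5 alternatives, and the background was 3.45% of genes without clusters of under 100000 UMIs and 3.57% without those of under 100 cells. Sst cells with Pyy numbered 14 to 17, and with Gcg or Insl5 0, in 7 alternatives each. These alternatives only leave out cells or UMIs, so the count of 0 could not rise and its stability is no result. Of single-gene values, 82 of 176 levels and 110 of 126 shares stayed within their counting interval, and 160 of 203 pair counts within 1.5 times; 18 of 29 pair counts moved further when thinned to 1000 UMIs, 18 at 10 UMIs and 7 at 3 UMIs. Leaving out the 1 cell with most UMIs, leaving out EEC with at least 10 UMIs of Krt5 or Muc2, day 0 alone and leaving out shallow clusters were chosen after seeing the data. The log2 ratio of members and the count of genes past a fold between days were not run, since 12 EEC at day 7 and day 42 are under the 20 set for them. No paired analysis was possible because each day is 1 pooled library.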
